A study of Homo sapiens with 12 samples.

Results

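A set of 10 human genes for carbonyl-reducing enzymes was followed through a doxorubicin time course: 3 carbonyl reductases (CBR1, CBR3 and CBR4) and 7 aldo-keto reductases (AKR1A1, AKR1B1, AKR1B10, AKR1C1, AKR1C2, AKR1C3 and AKR7A2). They were chosen by name, as enzymes able to reduce anthracyclines to alcohols, with earlier results of these data known. All 10 were found among the 60607 gene IDs of the count table. Messenger RNA was sequenced from AC16 cells of WT genotype, a human line derived by fusing adult ventricular heart cells with transformed fibroblasts. The 12 libraries formed 4 groups of 3: control cells in DMEM, and cells exposed to doxorubicin at 0.1 µM over 2, 4 or 6 days. The longest exposure is 6 days in the design text and 112 hours in the titles, every title carries Day6, and the labels do not say whether the shorter exposures ended at harvest. The labels name no separate cultures, so every p-value measures a spread between libraries that may be technical only.

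Doxorubicin carries a ketone on its side chain, and cytosolic reductases that use NADPH turn this ketone into the alcohol doxorubicinol. This reduction takes a pair of electrons and differs from the redox cycling of the quinone ring, which flavoenzymes drive by transfer of single electrons. In the heart doxorubicinol is known as a long-lived metabolite that disturbs calcium and iron handling, and in tumour cells reductase activity lowers the potency of the parent drug. CBR1 belongs to the short-chain dehydrogenases, whereas the aldo-keto reductases share a barrel fold and also reduce sugars, lipid aldehydes, prostaglandins and steroids.

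Promoter sequence is shown for the AKR1C genes, which were all lower than control at every exposure, for AKR1B1, which was higher, and for CBR1. RefSeq promoters on GRCh38.p14 were at hand for 8 of the 10 genes, in 11 entries, and the 250 bases before each start were searched on both strands. AKR1B10 and CBR3 had no entry. The windows lie at chr10:4963165-4963414 on the plus strand for AKR1C1, chr10:5003858-5004107 on the minus strand for AKR1C2, and chr10:5048531-5048780 and chr10:5094164-5094413 on the plus strand for the upstream and downstream starts of AKR1C3. The AKR1B1 window shown lies at chr7:134459101-134459350 on the minus strand and the CBR1 window at chr21:36069774-36070023 on the plus strand. Capitals mark the CCAAT box, read as ATTGG where it lies on the other strand, and in CBR1 the antioxidant response element core TGACNNNGC, also on the other strand. Each sequence runs 5′ to 3′ on the strand of its gene.
AKR1C1: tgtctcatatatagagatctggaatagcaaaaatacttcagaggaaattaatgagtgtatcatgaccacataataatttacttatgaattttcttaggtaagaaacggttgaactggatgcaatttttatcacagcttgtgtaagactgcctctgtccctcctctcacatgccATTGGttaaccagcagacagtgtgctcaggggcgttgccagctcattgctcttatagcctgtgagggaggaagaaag
AKR1C2: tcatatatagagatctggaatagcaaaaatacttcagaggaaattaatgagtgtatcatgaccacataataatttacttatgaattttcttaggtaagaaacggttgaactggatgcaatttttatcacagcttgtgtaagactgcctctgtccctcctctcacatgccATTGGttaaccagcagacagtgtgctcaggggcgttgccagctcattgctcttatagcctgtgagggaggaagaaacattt
AKR1C3 upstream start: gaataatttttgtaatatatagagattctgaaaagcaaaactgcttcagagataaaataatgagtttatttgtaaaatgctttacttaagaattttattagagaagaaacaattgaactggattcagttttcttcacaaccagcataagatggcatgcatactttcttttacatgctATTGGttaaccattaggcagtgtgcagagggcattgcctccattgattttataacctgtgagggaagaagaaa
AKR1C3 downstream start: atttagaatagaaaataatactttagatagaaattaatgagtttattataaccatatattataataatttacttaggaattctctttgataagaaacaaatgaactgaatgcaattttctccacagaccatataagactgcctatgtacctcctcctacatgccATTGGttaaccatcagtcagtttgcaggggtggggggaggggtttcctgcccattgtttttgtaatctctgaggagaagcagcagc
AKR1B1: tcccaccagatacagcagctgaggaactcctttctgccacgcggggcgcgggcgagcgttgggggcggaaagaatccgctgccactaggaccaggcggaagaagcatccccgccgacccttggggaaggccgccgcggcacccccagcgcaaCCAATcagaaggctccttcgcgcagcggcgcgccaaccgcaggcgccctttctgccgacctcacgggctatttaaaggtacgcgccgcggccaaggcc
CBR1: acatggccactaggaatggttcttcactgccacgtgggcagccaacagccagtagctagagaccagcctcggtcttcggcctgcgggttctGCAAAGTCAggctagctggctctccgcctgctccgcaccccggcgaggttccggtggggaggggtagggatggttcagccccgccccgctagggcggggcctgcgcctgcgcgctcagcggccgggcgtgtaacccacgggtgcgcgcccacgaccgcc

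AKR1C1 and AKR1C2, which lie in opposite orientation on chromosome 10, shared an unbroken run of 245 identical bases in these windows. AKR1C1 was 71.4% identical to the upstream AKR1C3 window, and AKR1C2 was 69.6% identical to it. The longest run common to all 4 AKR1C windows was 12 bases long, ATTGGTTAACCA, and holds the reversed CCAAT box. CCAAT was found in 5 of the 11 windows (those of the 3 AKR1C genes and the AKR1B1 window shown), or in 4 of the 8 genes. The comparison set was 27305 RefSeq promoter windows of that length, 1 per gene symbol, of which 33.0% held CCAAT. The other AKR1B1 window, for a start further upstream at chr7:134459240-134459489, held no CCAAT. TGACNNNGC was found in 3 of the 11 windows, that of CBR1 and both overlapping windows of AKR7A2. That is 2 of the 8 genes, against 11.0% of the comparison set. TATAAA was found in 1 of the 11 windows, the upstream AKR1C3 window, and in 11.1% of the comparison set. TGANTCA was found in 0 of the 11 and in 6.6% of the comparison set. None of these motifs overlapped the marked CCAAT boxes, and a match is a description of the letters, not of factor binding.

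Library totals were 14835743 to 21226441 counts. Of 12 cardiomyocyte markers 11 had under 1 CPM (counts scaled to the size of the library) in every group, and MYL2 had no count in any library. The remaining cardiomyocyte marker was TTN. All 9 of 9 fibroblast markers were measured, with a summed level of 8510 to 11900 CPM in treated libraries and 7690 to 8410 CPM in control libraries. Their members went both ways. At 6 days the means of VIM and THY1 were above control (4030 and 147 CPM, against 2130 and 136). Those of the other fibroblast markers were below control, such as LUM (58.8 CPM, against 213) and DCN (64.5 CPM, against 126). Smooth muscle markers summed to 303 to 394 CPM in treated libraries and 168 to 187 CPM in control libraries. At 6 days ACTA2 and MYOCD averaged 107 and 111 CPM (control 10.1 and 27.8), and CNN1 and TAGLN 11.8 and 84.9 CPM (control 27.5 and 109). Endothelial markers summed to 4.75 to 8.61 CPM in treated and 5.61 to 7.62 CPM in control libraries, and leukocyte markers to 5.85 to 13.2 and 4.82 to 7.35 CPM. Within both lists members went both ways. At 6 days TIE1 averaged 3.15 CPM (control 0.67) and KDR 0.836 CPM (control 3.43). Among the leukocyte markers CD68 averaged 7.72 CPM (control 2.51) and CD14 0.275 CPM (control 1.43). The part of these markers in the results was not tested. The share of counts on the 13 mitochondrial protein genes was 4.22% to 6.44%, and the 3 lowest libraries were 2-day replicate 3 (4.22%, against 5.94% and 6.00% in its group), 6-day replicate 1 (4.24%, against 4.88% and 5.14%) and control replicate 1 (4.37%, against 5.10% and 6.12%). Without the 2-day and control libraries among these, the number of the 10 genes that changed was the same in each comparison. Without all 3 it was the same except at 6 days against 2 days, where 6 were called in place of 7, the lost call being AKR1C2 (adjusted p = 0.0725). In RNA from whole cultures, fewer cells of a type and less RNA per cell cannot be told apart.

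Doxorubicin shifted most of these genes, in both directions. Levels were compared with edgeR's quasi-likelihood test over 17320 genes, and a gene was taken as changed at a Benjamini-Hochberg adjusted p under 0.05. After 2 days 2 of the 10 genes were higher than in control cells and 6 were lower, while 23.8% of all genes tested were higher and 23.4% were lower. After 4 days 3 were higher and 6 lower, against 18.8% and 17.7% of all genes. After 6 days 3 were higher and 5 lower, against 22.0% and 21.7% of all genes. The median log2 fold change of the 10 genes was -0.41 at 2 days, -0.37 at 4 days and -0.28 at 6 days, with medians of -0.013, -0.003 and -0.006 over all genes tested. Any difference among the 4 groups was found for 9 of the 10 genes, the exception being AKR7A2 (adjusted p = 0.694), and for 63.4% of all genes. All 3 comparisons use the same control libraries, and AKR1B10, which had under 10 counts in every control library, entered the test only through its treated libraries.

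**Figure D1:**
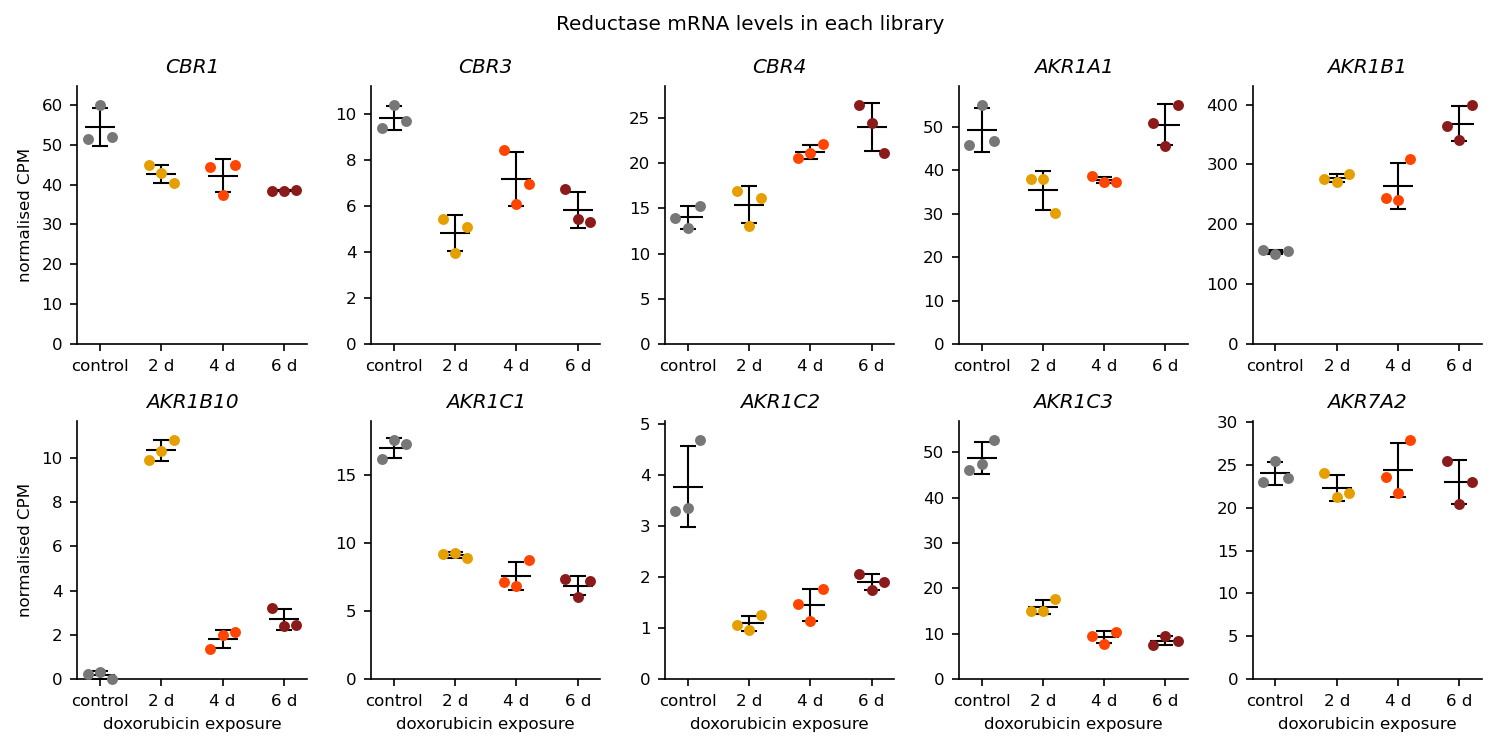
Normalised CPM (vertical axis, from 0) of each gene in each library, by group (horizontal axis: control, then 2, 4 and 6 days of doxorubicin); points are libraries, and bars give the mean and SD of 3. AKR1B1 and AKR1B10 lie above control at every exposure, CBR1, CBR3 and the 3 AKR1C genes lie below it, and AKR7A2 overlaps throughout.

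CBR1, the cytosolic carbonyl reductase regarded as a main source of doxorubicinol in human tissues, lies at chr21:36069941-36073166 and fell modestly. It measured 51.4, 59.9 and 51.9 normalised CPM in control libraries, 44.9, 42.8 and 40.4 after 2 days, 44.3, 37.4 and 44.9 after 4 days and 38.5, 38.4 and 38.7 after 6 days. Every treated library was below every control library, and the 2-day and 4-day libraries overlapped. The log2 fold change was -0.35 ± 0.092 (SE) at 2 days, -0.37 ± 0.092 at 4 days and -0.50 ± 0.092 at 6 days (adjusted p = 0.00294, 0.00277 and 9.77e-05), or 1.41-fold lower at the longest exposure. No pair of exposures differed past the threshold for CBR1 (adjusted p = 0.913, 0.447 and 0.204). An antisense gene, CBR1-AS1, covers 18.9% of CBR1's exon bases, but it held at most 7 counts in any library.

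CBR3, a close relative of CBR1 from the same stretch of chromosome 21 that reduces fewer substrates in enzyme assays, fell at every exposure. Its levels were 9.42, 10.4 and 9.71 CPM in control libraries, 5.44, 3.97 and 5.10 after 2 days, 8.43, 6.12 and 6.97 after 4 days and 6.76, 5.45 and 5.33 after 6 days. Again no treated library reached the lowest control library, and the 2-day libraries lay below the 4-day libraries and overlapped the 6-day libraries. The log2 fold change was -1.01 ± 0.16 at 2 days (adjusted p = 1.39e-05), -0.45 ± 0.15 at 4 days (adjusted p = 0.0241) and -0.76 ± 0.16 at 6 days (adjusted p = 0.000375). CBR3 was 1.47-fold higher at 4 days than at 2 days (log2 fold change 0.56 ± 0.17, adjusted p = 0.0103), and the difference between 6 and 2 days was not called (0.26 ± 0.17, adjusted p = 0.231). Both calls at 4 days were fragile: against control, leaving out control replicate 2 gave an adjusted p of 0.0586, leaving out 4-day replicate 2 or 3 gave 0.119 or 0.0693, and DESeq2 gave 0.0518. Against 2 days, leaving out 2-day replicate 2 gave 0.0645 and leaving out 4-day replicate 1 gave 0.0817. CBR3-AS1, on the opposite strand, covers 42.2% of CBR3's exon bases. Since the strand setting of the counting is not given, reads of the pair cannot be told apart. CBR3-AS1 held 34 to 107 counts per library and was higher at 4 days than at 2 days (log2 fold change 0.86 ± 0.22, adjusted p = 0.00332). Against control its log2 fold change was -0.24 ± 0.23, 0.62 ± 0.22 and 0.24 ± 0.22 at 2, 4 and 6 days (adjusted p = 0.419, 0.0268 and 0.407).

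CBR4, a mitochondrial reductase of the fatty acid synthesis pathway that also reduces quinones, was the carbonyl reductase that rose. It had 13.9, 12.8 and 15.3 CPM in control libraries, 16.9, 13.1 and 16.2 after 2 days, 20.6, 21.1 and 22.1 after 4 days and 26.4, 24.4 and 21.1 after 6 days. The 2-day libraries overlapped control, and the 4-day and 6-day libraries lay above both. The log2 fold change against control was 0.60 ± 0.12 at 4 days and 0.77 ± 0.12 at 6 days (adjusted p = 0.000265 and 8.46e-06), and 0.15 ± 0.12 at 2 days, where the test was not passed (adjusted p = 0.344). PALLD, on the opposite strand, covers 2.1% of CBR4's exon bases; its own log2 fold change was 1.18 ± 0.071 at 2 days, 0.48 ± 0.071 at 4 days and 0.48 ± 0.071 at 6 days (adjusted p = 1.06e-12, 6.95e-06 and 4.81e-06), and its part in the CBR4 counts was not tested.

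Among the aldo-keto reductases, AKR1B1 was the most abundant gene in every group and rose throughout. AKR1B1 is aldose reductase, which converts glucose to sorbitol in the polyol pathway and also clears lipid aldehydes, and lies at chr7:134442350-134459284. Its libraries held 157, 151 and 155 CPM in control cells, 275, 271 and 284 after 2 days, 244, 240 and 309 after 4 days and 365, 341 and 399 after 6 days. All treated libraries were above all control libraries, the 2-day and 4-day libraries overlapped, and the 6-day libraries were above both. Its log2 fold change was 0.84 ± 0.089, 0.78 ± 0.089 and 1.26 ± 0.089 at 2, 4 and 6 days (adjusted p = 2.33e-08, 1.51e-07 and 2.43e-11), which is 2.39-fold at 6 days. AKR1B1 was also higher at 6 days than at 4 days (0.48 ± 0.087, adjusted p = 0.00126) and than at 2 days (0.41 ± 0.087, adjusted p = 0.000459).

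AKR1B10, a neighbouring gene for a reductase of retinal and lipid aldehydes that is normally abundant in the gut lining, had the widest change of the 10, with its peak at 2 days. It was at the edge of detection in control libraries, with 4, 5 and 0 counts, or 0.227, 0.328 and 0 CPM. Treated libraries held 196, 151 and 180 counts (9.88, 10.3 and 10.8 CPM) after 2 days, 24, 33 and 39 counts (1.36, 1.98 and 2.14 CPM) after 4 days and 53, 44 and 53 counts (3.23, 2.40 and 2.45 CPM) after 6 days. No treated library overlapped control, and the 2-day libraries stood above all others. The fitted log2 fold change was 5.73 ± 0.34 at 2 days, 3.24 ± 0.43 at 4 days and 3.79 ± 0.40 at 6 days (adjusted p = 6.43e-13, 1.59e-06 and 3e-08). These sizes rest on few control counts: they were 6.33, 3.83 and 4.38 without control replicate 2, and 5.2, 2.7 and 3.25 without control replicate 3, the library with no count. AKR1B10 was 5.64-fold lower at 4 days than at 2 days (log2 fold change -2.50 ± 0.23, adjusted p = 4.83e-09), and the difference between 6 and 4 days was not called (0.55 ± 0.25, adjusted p = 0.208).

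Even at its peak AKR1B10 was a minor transcript beside AKR1B1, at 0.0374 ± 0.0012 (SD, n = 3) counts per AKR1B1 count after 2 days, against 0.00121 ± 0.0011 in control libraries. The related AKR1B15, which shares 11.55% of AKR1B10's 50-base stretches, held 2 counts in all 2-day libraries together, and the 2-day log2 fold change of the summed pair was 5.74 ± 0.34. The summed level of 8 epithelial and liver markers, 5 of them tested, was also high at 2 days, with 252 to 277 CPM, against 92.9 to 125 CPM in control libraries. Most of this sum came from the keratins (KRT18 averaged 193 CPM at 2 days and 66.8 CPM in control). Of the other epithelial genes, CDH1 averaged 4.77 CPM in control libraries, 6.59 at 2 days, 1.18 at 4 days and 1.26 at 6 days. EPCAM, under 1 CPM in every group, averaged 0.556, 0.185, 0.478 and 0.356 CPM in the same order. The summed level was 86.0 to 112 CPM at 4 days and 80.5 to 88.5 CPM at 6 days. The keratins went both ways at 6 days. KRT8 and KRT18 averaged 23.4 and 42.1 CPM, below control (27.9 and 66.8). KRT19 averaged 5.39 CPM in control libraries, 22.1 at 2 days, 18.6 at 4 days and 17.7 at 6 days. The defining liver genes ALB, APOA1 and HNF4A stayed under 1 CPM in every group, and the part of the epithelial markers in the AKR1B10 result was not tested.

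AKR1A1, aldehyde reductase, a broad enzyme that also makes ascorbate in rodents, was lower at 2 and 4 days and overlapped control at 6 days. It had 45.9, 55.0 and 46.8 CPM in control libraries, 37.9, 38.1 and 30.3 after 2 days, 38.6, 37.3 and 37.4 after 4 days and 51.0, 45.5 and 55.0 after 6 days. The 2-day and 4-day libraries were below every control library, and the 6-day libraries overlapped control libraries. On the log2 scale the change was -0.47 ± 0.10 and -0.38 ± 0.10 at 2 and 4 days (adjusted p = 0.000469 and 0.00449), and 0.038 ± 0.10 at 6 days (adjusted p = 0.793). At 6 days AKR1A1 was higher than at 2 days (0.51 ± 0.10, adjusted p = 0.000247) and than at 4 days (0.42 ± 0.10, adjusted p = 0.0122), the last call being lost without 6-day replicate 3 (adjusted p = 0.0691).

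**Figure D2:**
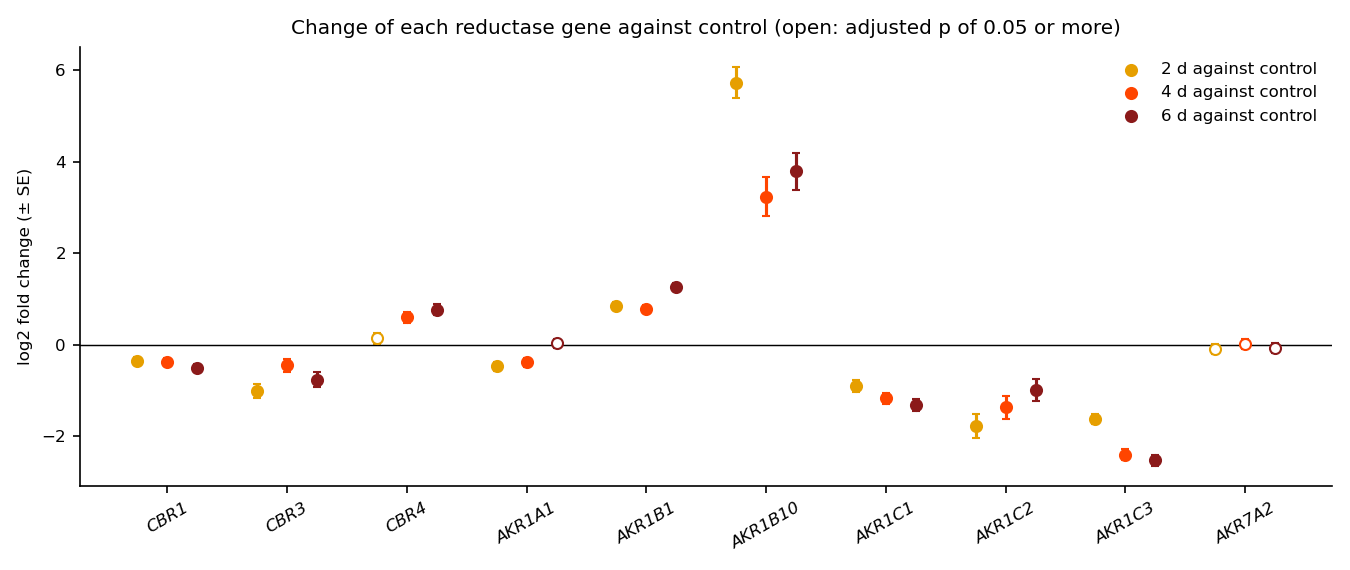
Log2 fold change against control (vertical axis) of each of the 10 genes (horizontal axis) at 2, 4 and 6 days; bars are the SE of the fit, filled points have an adjusted p under 0.05. AKR1B10 reaches 5.73 at 2 days and AKR1C3 falls to -2.52 at 6 days, while the 3 AKR7A2 points straddle 0.

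The 3 AKR1C genes, which sit side by side at chr10:4963253-5107686 and encode hydroxysteroid dehydrogenases, all fell at every exposure. At 2 days AKR1C2 had the lowest log2 fold change of the 3 (-1.78 ± 0.26). AKR1C3, which makes testosterone and prostaglandin F and is known to reduce doxorubicin, fell furthest at 4 and 6 days. It had 46.1, 47.3 and 52.7 CPM in control libraries, 15, 14.9 and 17.6 after 2 days, 9.56, 7.74 and 10.3 after 4 days and 7.62, 9.54 and 8.34 after 6 days. The groups stepped down without overlap to 4 days, and the 4-day and 6-day libraries overlapped. The log2 fold change was -1.62 ± 0.11, -2.40 ± 0.12 and -2.52 ± 0.12 at 2, 4 and 6 days (adjusted p = 1.96e-11, 5.36e-14 and 1.4e-14), which is 5.72-fold lower at 6 days. The further fall between 2 and 4 days was itself called (-0.78 ± 0.13, adjusted p = 2.65e-05), and the difference between 6 and 4 days was not (-0.11 ± 0.13, adjusted p = 0.68).

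AKR1C1, which inactivates progesterone, had 16.2, 17.6 and 17.3 CPM in control libraries, 9.17, 9.31 and 8.89 after 2 days, 7.13, 6.84 and 8.78 after 4 days and 7.37, 6.05 and 7.22 after 6 days. All treated libraries lay under control, and the 2-day libraries were above the 4-day and 6-day libraries, which overlapped. Its log2 fold change was -0.90 ± 0.13, -1.17 ± 0.13 and -1.31 ± 0.13 (adjusted p = 2.54e-06, 1.03e-07 and 1.15e-08). The difference between 4 and 2 days was not called (-0.26 ± 0.14, adjusted p = 0.137). At 6 days AKR1C1 was lower than at 2 days (-0.41 ± 0.14, adjusted p = 0.0182), a call lost with scaling by library totals (adjusted p = 0.149) and without 6-day replicate 2 (adjusted p = 0.0945).

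AKR1C2, which inactivates dihydrotestosterone and binds bile acids, was the scarcest of the trio, with 58, 51 and 71 counts in control libraries, 21, 14 and 21 after 2 days, 26, 19 and 32 after 4 days and 34, 32 and 41 after 6 days. As normalised levels these were 3.29, 3.35 and 4.69 CPM in control libraries, 1.06, 0.958 and 1.26 after 2 days, 1.47, 1.14 and 1.76 after 4 days and 2.07, 1.74 and 1.90 after 6 days. Every treated library was below control, and the 6-day libraries were above the 2-day libraries. Against control the log2 fold change was -1.78 ± 0.26, -1.36 ± 0.25 and -0.98 ± 0.24 (adjusted p = 3.49e-06, 9.66e-05 and 0.00143) at 2, 4 and 6 days, with the lowest value at 2 days. AKR1C2 was higher at 6 days than at 2 days (0.79 ± 0.27, adjusted p = 0.0219), but this call was lost with DESeq2 (adjusted p = 0.0531), with no low-count filter (0.0606) and without 2-day replicate 1, 2-day replicate 2 or 6-day replicate 1 (0.0649, 0.067 and 0.0637).

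The balance within the trio shifted. AKR1C3 had 2.86 ± 0.179 (SD, n = 3) counts per AKR1C1 count in control libraries, 1.74 ± 0.21 after 2 days, 1.21 ± 0.112 after 4 days and 1.25 ± 0.285 after 6 days, and every treated library was below every control library. AKR1C2 had 0.221 ± 0.0434 counts per AKR1C1 count in control libraries, 0.12 ± 0.0199 after 2 days, 0.191 ± 0.0213 after 4 days and 0.277 ± 0.0131 after 6 days, so the 2-day libraries were the low ones. These ratios were not tested. The split between AKR1C1 and AKR1C2 is uncertain, since 43.23% of the 50-base stretches of AKR1C2 transcripts also occur in AKR1C1 and 26.64% of those of AKR1C1 occur in AKR1C2. AKR1C3 shares 6.08% with AKR1C1 and 7.61% with AKR1C2. Summed over the AKR1C genes, with AKR1C4 (at most 3 counts in any group), the level was 65.7, 68.3 and 74.7 CPM in control libraries, 25.2, 25.3 and 27.7 after 2 days, 18.3, 15.7 and 20.8 after 4 days and 17.1, 17.3 and 17.5 after 6 days. The sum does not depend on how the counted reads were split, but any shared reads that the counting dropped are missing from it. It had a log2 fold change of -1.41 ± 0.099, -1.93 ± 0.10 and -2.01 ± 0.10 (adjusted p = 1.59e-11, 1.32e-13 and 4.02e-14). At 6 days this was larger than that of AKR1C1 or AKR1C2 alone, and AKR1C3, the largest part of the sum, had -2.52 ± 0.12.

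AKR7A2, a reductase of succinic semialdehyde and of aflatoxin aldehydes, was the 1 gene of the 10 with no call in any of the 6 comparisons. It had 23.0, 25.5 and 23.5 CPM in control libraries, 24.0, 21.2 and 21.7 after 2 days, 23.6, 21.7 and 27.9 after 4 days and 25.5, 20.4 and 23.0 after 6 days. All groups overlapped. The log2 fold change against control was -0.10 ± 0.11, 0.026 ± 0.11 and -0.064 ± 0.11 at 2, 4 and 6 days (adjusted p = 0.486, 0.882 and 0.673), and the sign at 4 and 6 days changed when single libraries were left out. AKR7A2 shares 4.99% of its 50-base stretches with AKR7A3 and 7.76% with AKR7L. DESeq2 likewise called it in 0 of the 6 comparisons, and edgeR's unadjusted p was under 0.05 in 0 of them.

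Between exposures, 2 of the 10 genes were higher at 4 days than at 2 days (CBR3 and CBR4) and 2 were lower (AKR1B10 and AKR1C3), while 16.3% of all genes were higher and 18.5% lower. At 6 days against 4 days fewer genes were called: AKR1A1 and AKR1B1 were higher and 0 of the 10 lower, against 3.05% and 3.73% of all genes. With DESeq2, and at an unadjusted edgeR p under 0.05, 0 of the 10 were lower too, and 1 of the 10 was called by edgeR without 6-day replicate 3. The mitochondrial share was 4.24% to 5.14% at 6 days and 6.34% to 6.44% at 4 days, and its part in these differences was not tested. Between 6 and 2 days 4 genes were higher (CBR4, AKR1A1, AKR1B1 and AKR1C2) and 3 lower (AKR1B10, AKR1C1 and AKR1C3), against 19.8% and 23.0% of all genes. In 1 or more of these 3 comparisons 8 of the 10 genes were called, against 50.0% of all genes. The remaining values were 0.46 ± 0.12 for CBR4 at 4 days against 2 days (adjusted p = 0.00333), and at 6 days against 2 days 0.63 ± 0.12 for CBR4 (adjusted p = 0.00011), -1.95 ± 0.21 for AKR1B10 (adjusted p = 7.57e-08) and -0.90 ± 0.13 for AKR1C3 (adjusted p = 3.42e-06). Median log2 fold changes of the 10 genes were 0.04, 0.04 and 0.15 in these 3 comparisons, and 0.004, 0.001 and 0.003 over all genes. With scaling by totals only, the median over all genes was -0.136 at 2 days against control and 0.162 at 6 days against 2 days. Under it the 4122 higher and 4058 lower genes at 2 days against control became 3203 and 5386, and between exposures the splits 2828 and 3203, 528 and 646, and 3437 and 3977 became 3842 and 2443, 1006 and 350, and 5265 and 2538 (4 days against 2, 6 against 4, 6 against 2).

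Per exon length, AKR1B1 came to make up most of the summed reductase level. Levels divided by the exon length of each gene (normalised CPM per kb) ran in control cells in the order AKR1B1 (42.2), CBR1 (22.2), AKR1A1 (15.8), AKR7A2 (13.5), AKR1C3 (10.7), CBR3 (8.41), CBR4 (2.74), AKR1C1 (1.94), AKR1C2 (0.585) and AKR1B10 (0.106). No neighbours in this order overlapped in their control libraries, the closest being AKR1A1 (14.7 to 17.6), AKR7A2 (12.9 to 14.3) and AKR1C3 (10.2 to 11.6). The summed level was 118 ± 3.61 (SD, n = 3) normalised CPM per kb in control libraries, 135 ± 2.52 after 2 days, 130 ± 13.9 after 4 days and 160 ± 9.71 after 6 days. The sum of the 4-day libraries, 118 to 145, overlapped that of the control libraries, 115 to 122, whereas 2-day and 6-day libraries were above them. AKR1B1 held 35.7% ± 1.78 of this sum in control libraries, 56.1% ± 1.45 after 2 days, 55.5% ± 2.45 after 4 days and 63.0% ± 1.59 after 6 days. CBR1's share was 18.8% in control libraries, 12.9% at 2 days, 13.3% at 4 days and 9.86% at 6 days, and that of AKR1C3 was 9.10%, 2.59%, 1.56% and 1.18% in the same order. Exon length as a union of all transcripts understates genes with long rare exons: by the longest principal transcript AKR1B1 held 45.8%, 67.5%, 67.1% and 73.5%, and AKR1C3 moved above AKR7A2 in control cells. These are transcript levels, and enzyme amount and activity were not measured.

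**Figure D3:**
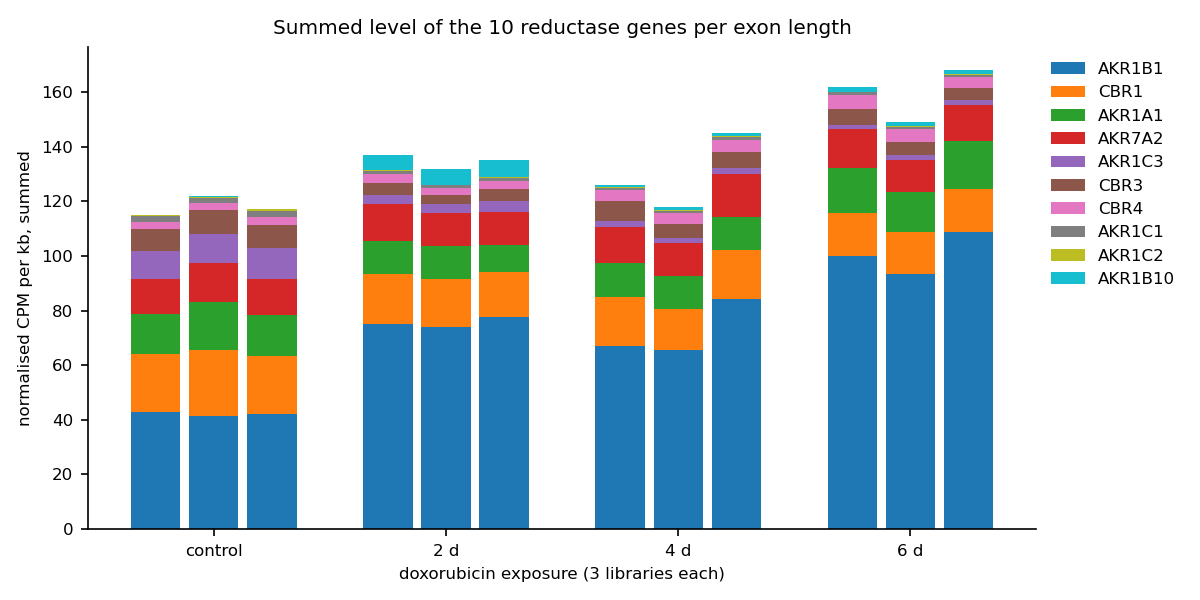
Summed normalised CPM per kb of exon (vertical axis, from 0) of the 10 genes in each of the 12 libraries, grouped as control, 2, 4 and 6 days of doxorubicin (horizontal axis), with 1 colour per gene. AKR1B1 grows to 63.0% of the 6-day sum, against 35.7% in control, and AKR1C3 shrinks to 1.18%, against 9.10%.

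Other genes of related enzyme families were read from the same fit, and not all of them encode carbonyl reductases. These lists were also chosen with earlier results of these data known. Of all genes tested, 17.7% to 23.8% were called in each direction against control, depending on the exposure. Of 10 other aldo-keto reductase genes 6 were tested, and edgeR called 0 higher at any exposure, while 3 were lower at 2 days, 1 at 4 days and 1 at 6 days. DESeq2 also called 0 higher, and at an unadjusted edgeR p under 0.05 there were 0 higher at 2 days, 1 at 4 days and 2 at 6 days (median log2 fold changes -0.57, 0.20 and 0.06). Those lower at 2 days were the potassium channel subunits KCNAB2 (log2 fold change -0.92 ± 0.12, adjusted p = 6.46e-07) and KCNAB3 (-1.16 ± 0.12, adjusted p = 1.76e-08), and AKR1E2 (-1.09 ± 0.25, adjusted p = 0.000971). The other short-chain and medium-chain reductases listed, which include the quinone reductase TP53I3, had medians above 0, and 21 of 22 were tested. At each exposure 11 were higher and 2 lower, with median log2 fold changes of 0.48, 0.37 and 0.27. TP53I3, a p53-induced quinone reductase, averaged 7.08 CPM in control libraries and 164 CPM at 2 days, a log2 fold change of 4.54 ± 0.11, and 3.34 ± 0.11 at 6 days. DHRS2, a dicarbonyl reductase, rose by 5.16 ± 0.43 at 2 days, with 5 counts in the control libraries together. RDH10, a retinol dehydrogenase, rose by 1.48 ± 0.10 at 2 days, and HSD17B12, of fatty acid elongation, by 0.67 ± 0.08.

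Of 16 genes for enzymes that reduce the quinone ring of anthracyclines 13 were tested. There were 3 higher and 6 lower at 2 days, 3 and 4 at 4 days and 3 and 6 at 6 days (medians -0.10, -0.05 and -0.16). The share of all genes tested was 17.7% to 23.8% in each direction. NQO1, a quinone reductase, averaged 45.0 ± 1.80 CPM at 6 days and 129 ± 4.42 CPM in control libraries (log2 fold change -1.52 ± 0.083, adjusted p = 1.52e-13). POR, the reductase that feeds microsomal P450 enzymes, was lower at 6 days (-0.81 ± 0.12) and was not called at 2 days (-0.019 ± 0.11, adjusted p = 0.903). TXNRD1, thioredoxin reductase, was lower at each exposure, with -0.88 ± 0.081 at 6 days, whereas XDH, xanthine dehydrogenase, was higher, with 2.19 ± 0.15 at 2 days and 1.06 ± 0.16 at 6 days.

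Genes that supply NADPH, the cofactor of these reductases, changed in both directions, and 18 of 19 were tested. There were 3 higher and 8 lower at 2 and at 4 days and 2 and 7 at 6 days (medians -0.19, -0.23 and -0.12). Beside these counts and those of the next list, 17.7% to 23.8% of all genes tested were called in each direction. IDH1, cytosolic isocitrate dehydrogenase, had a log2 fold change of -1.14 ± 0.082 at 6 days, and ALDH1L2, of mitochondrial folate metabolism, -0.88 ± 0.094. TKT, transketolase, was higher at 2 days (0.79 ± 0.088) and lower at 6 days (-0.35 ± 0.088), and H6PD, which makes NADPH inside the endoplasmic reticulum, was higher at 6 days (0.66 ± 0.081). Aldehyde-oxidising genes, of which only some act on lipid aldehydes, were mixed: of 15, 13 were tested, with 4 higher and 4 lower at 2 days, 4 and 3 at 4 days and 4 and 2 at 6 days (medians 0.02, 0.16 and 0.10). ALDH1B1 was higher at 2 days (1.09 ± 0.084) and ALDH1A3, of retinoic acid synthesis, at 6 days (1.04 ± 0.12), ALDH7A1 was higher at 6 days (0.50 ± 0.087) and ALDH6A1 lower (-0.58 ± 0.093).

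NRF2, encoded by NFE2L2, is the transcription factor of the antioxidant response, and AKR1C1, AKR1C2, AKR1C3 and AKR1B10 are known targets of it in human cells. Of 32 other genes of the NRF2 system, all tested, 12 were higher and 10 lower at 2 days, 3 and 16 at 4 days and 4 and 18 at 6 days. Their medians were -0.02, -0.31 and -0.32, and 17.7% to 23.8% of all genes tested were called in each direction. NFE2L2 itself averaged 94.6 ± 2.44 CPM at 6 days and 199 ± 1.47 CPM in control libraries, and its log2 fold change was -0.59 ± 0.069, -0.84 ± 0.069 and -1.07 ± 0.07 at 2, 4 and 6 days (adjusted p = 1.35e-07, 5.77e-10 and 4.31e-12). KEAP1, which targets NRF2 for degradation, was lower at 2 days (-0.43 ± 0.12, adjusted p = 0.00468), and BACH1, a repressor at the same elements, was higher at 2 days (0.38 ± 0.13, adjusted p = 0.0203) and lower at 4 days (-0.35 ± 0.13, adjusted p = 0.0382). GCLM, a glutathione synthesis subunit, was higher at 2 days (0.25 ± 0.082) and lower at 6 days (-0.64 ± 0.084). Within the 10 genes AKR1B10 was higher and the AKR1C genes were lower at every exposure. NQO1, TXNRD1 and TKT stand in 2 lists each, and a link between NFE2L2 and the reductases was not tested.

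**Figure D4:**
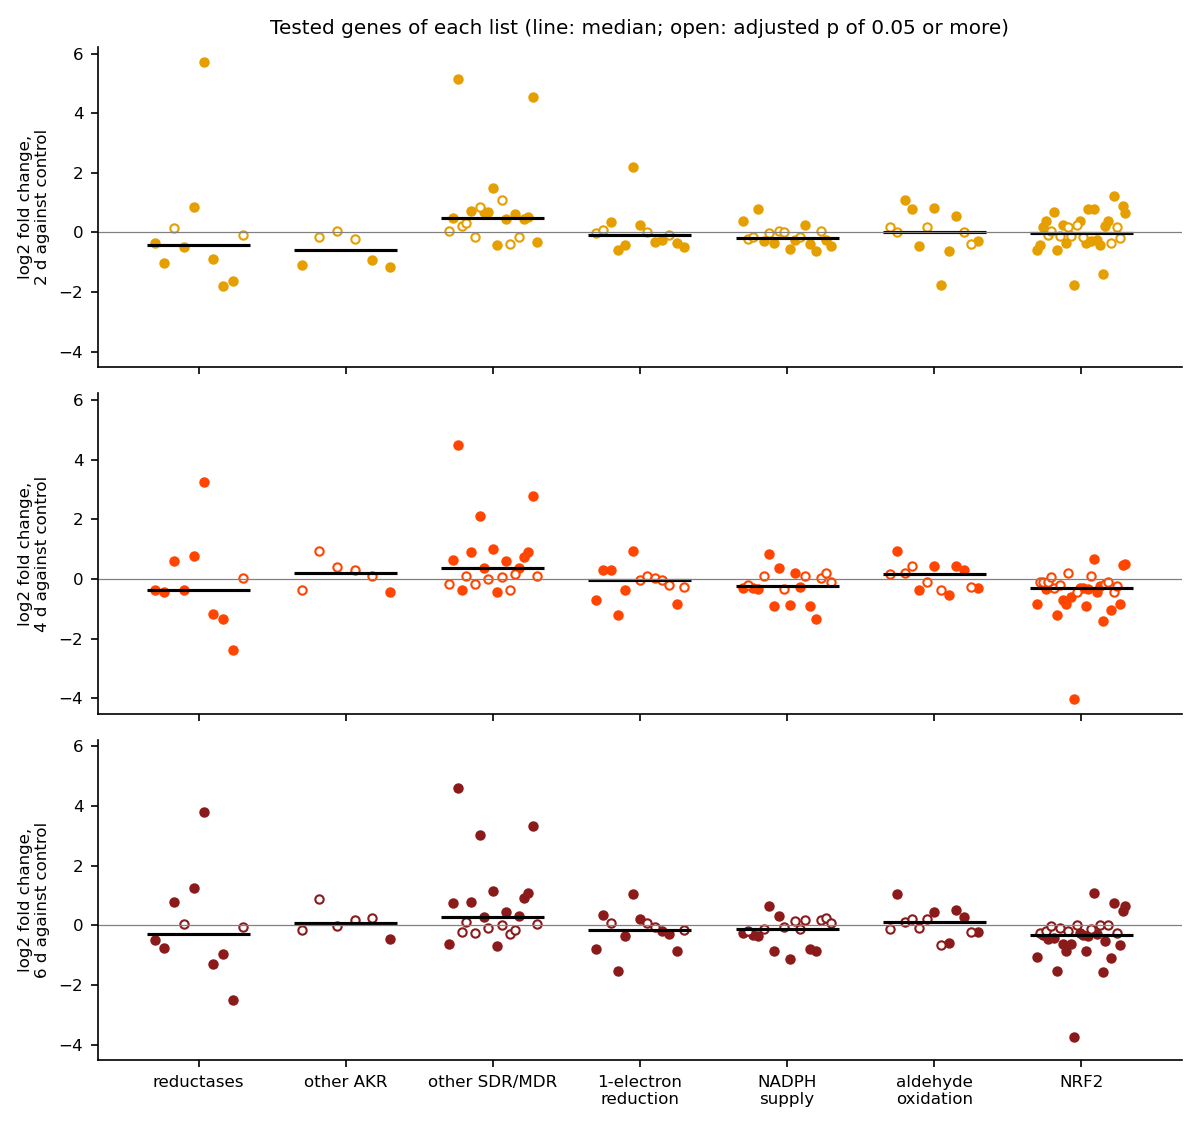
Log2 fold change against control (vertical axis) at 2, 4 and 6 days (top to bottom) of each tested gene of the 10 reductases and of 6 further lists (horizontal axis); black lines are medians, filled points have an adjusted p under 0.05. The other short-chain and medium-chain reductases have medians of 0.48, 0.37 and 0.27, and the reductases of -0.41, -0.37 and -0.28.

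The genes whose levels ran most like a reductase were ranked by Pearson's r of log2 CPM over the 12 libraries, which fall into 4 groups, so that r mostly follows the group means. Nearest to AKR1B10 were BCL2L1 (0.988), PHLDA3 and TMBIM1 (both 0.982), AEN (0.978) and DRAM1 (0.975). PHLDA3 averaged 97.9 CPM at 2 days, 46.6 at 4 days and 49.0 at 6 days, against 12.0 CPM in control libraries. Nearest to AKR1C3 were IFRD1 (0.987), HMGCS1 (0.982), IDI1 and KIF18A (both 0.981) and ZCCHC8 (0.979). HMGCS1 averaged 238 CPM at 2 days, 167 at 4 days and 166 at 6 days, against 470 CPM in control libraries. Nearest to CBR1 were HNRNPAB (0.972), RNF8 (0.97), SRSF3 (0.969), HEXIM1 (0.964) and SIAH2 (0.963).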

How the data were processed

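RNA of 12 AC16 libraries, 3 in each of 4 groups set by the labels, came from a NEBNext Ultra kit, per the labels' protocols. Raw whole-number counts were deposited for 60607 versioned Ensembl IDs, with no normalization by the authors. The submitters' processing notes name fastp 0.23.2, Trimmomatic 0.38, STAR 2.7.8, HTSeq 0.13.5 and the build GRCh38.p13, with no roles; the strand setting is not given in the sources used here. IDs were matched to symbols for 60437 rows.

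Here counts were fitted with edgeR 4.0.16 (R 4.3.3): TMM scaling, genes kept by a minimum count of 10 and total of 15, robust quasi-likelihood fit over all 12 libraries with 8 residual degrees of freedom, Benjamini-Hochberg adjustment over 17320 genes. The common biological coefficient of variation was 0.0887. The fit was tested on simulated data. DESeq2 1.42.0, other scalings and filters, a block by replicate number, left-out libraries and summed gene copies were alternatives. Gene positions and exon lengths are from GENCODE 29 on GRCh38, promoters from RefSeq GRCh38.p14. The 10 genes and all lists were chosen with earlier results of these data known. All 10 genes are named; of each list, up to 4 genes by the smallest p for any difference and its regulators; like-patterned genes are the 5 with the highest r (log2 CPM, prior count 2) and 10 CPM in a group, for 3 genes. No pairing by replicate number was seen: 0 of 18 same-numbered pairs correlated over 0.1, and other pairs ranged from -0.217 to 0.17. This check cannot show that the libraries were unpaired.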

Additional observations from a re-analysis of the deposited data

Results flagged for a closer look

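A direct test of the difference between exposure times was passed in 1 or more of 3 comparisons by 8 of the 10 reductase genes, against 50.0% of all genes tested. At 4 days against 2 days the log2 difference was 0.56 for CBR3 and -2.50 for AKR1B10. At 6 days against 4 days it was 0.48 for AKR1B1. At 6 days against 2 days it was 0.63 for CBR4, 0.51 for AKR1A1, -0.41 for AKR1C1, 0.79 for AKR1C2 and -0.90 for AKR1C3. The AKR1C2 call was lost under several alternatives, and the split of reads between AKR1C2 and AKR1C1 is uncertain.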

How the results depend on the processing

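Of 1260 values of single genes under alternatives, 1223 kept their direction and their side of the threshold, 15 lost the call, 1 gained one and 21 changed sign, with summed gene copies left out of these counts. With single libraries left out, the 10 genes gave 8 calls at 2 days against control, 8 to 9 at 4 days and 8 at 6 days, and 1 to 2 at 6 days against 4 days. Calls over all genes at 6 days against 4 days ranged from 574 to 1836 with single libraries left out and came to 1847 with these groups fitted alone and 659 without the 3 libraries lowest in mitochondrial share, against 1174. Summed AKR1C counts, mostly AKR1C3 and AKR1C1, gave -0.51 (4 days against 2), -0.081 (6 against 4) and -0.59 (6 against 2), below 0 where AKR1C2 alone was above it; the sum is no estimate for AKR1C2. Library totals alone reversed AKR7A2 at 4 days against control to -0.0092, CBR1 to 0.071 (4 against 2) and 0.011 (6 against 2) and AKR1B1 to 0.022 (4 against 2). Without 2 libraries low in mitochondrial share, chosen after the data were seen, AKR7A2 was -0.0029 at 4 days and AKR1A1 -0.011 at 6 days against control, and AKR1A1 -0.0087 at 4 days against 2; without 3, AKR1A1 was -0.018 at 6 days against control, AKR7A2 -0.064 at 6 days against 2 and the other 2 values were the same. Left-out libraries gave AKR7A2 -0.083 to 0.10 at 4 days and -0.14 to 0.014 at 6 days against control, -0.17 to 0.019 at 6 against 4 and -0.044 to 0.11 at 6 against 2, AKR1A1 -0.030 to 0.12 at 6 days against control and -0.015 to 0.14 at 4 against 2, and CBR1 -0.061 to 0.062 at 4 against 2. The cause was not tested. These values for AKR7A2, AKR1A1, CBR1 and AKR1B1 missed the threshold, as did the same comparisons in the edgeR fit of all 12 libraries.

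With a replicate block the 10 genes gave 8, 9 and 8 calls against control and all genes gave 7950, 6035 and 7296. No pairing by number was seen, though the check cannot show that there was none, and 2 of 12 libraries correlated best with their own number. Low counts limit AKR1B10 in control cells and AKR1C2.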
